A study of Mus musculus with 9 samples.

Results

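Liver carboxylesterases were followed here as 10 genes, Ces1c, Ces1d, Ces1e, Ces1f, Ces1g, Ces2a, Ces2c, Ces2e, Ces3a and Ces3b, taken by gene name from a table of 54532 genes. Messenger RNA was measured by RNA-seq in 9 liver libraries of wild-type male C57BL/6J mice, 3 libraries in each of 3 groups. The chow group ate normal chow and received vehicle. The vehicle group ate CDAA-HFD, a fatty diet made from amino acids and lacking choline that is used to produce steatohepatitis, and received vehicle, and the 326E group ate the same diet and received the compound 326E at 30 mg/kg for 6 weeks. The series title names ATP citrate lyase and PPARα as the targets of 326E. The ages of the mice are not given in the labels, every title begins with MCD although the protocol names CDAA-HFD, and no label says that each library came from a separate mouse, so p-values measure the spread between these samples.

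Carboxylesterases are enzymes of the endoplasmic reticulum that cut esters, amides and thioesters. In the liver they hydrolyse drugs and other foreign esters, and several also act on acylglycerols and cholesteryl esters, which links them to the fat that hepatocytes store and secrete in VLDL. Mice carry many more carboxylesterase genes than humans, in tandem arrays that arose by duplication.

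All 20 carboxylesterase genes of the table lie on chromosome 8 of mm10, and the 10 genes had the same coordinates in GENCODE vM21. Ces1c (ENSMUSG00000057400, 93099015 to 93131283), Ces1d (ENSMUSG00000056973, 93166068 to 93197838), Ces1e (ENSMUSG00000061959, 93201218 to 93229619), Ces1f (ENSMUSG00000031725, 93256236 to 93279747) and Ces1g (ENSMUSG00000057074, 93302369 to 93337308) follow each other on the minus strand. Ces2a (ENSMUSG00000055730, 104734003 to 104741634), Ces2c (ENSMUSG00000061825, 104847068 to 104854483), Ces2e (ENSMUSG00000031886, 104926260 to 104934672), Ces3a (ENSMUSG00000069922, 105048601 to 105058413) and Ces3b (ENSMUSG00000062181, 105083753 to 105093929) lie further along on the plus strand. A gap of 11198 kb separates Ces2a from Ces5a, the carboxylesterase gene before it, which is not among the 10.

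Because some of these genes are near copies, reads can be hard to assign. Among all GENCODE vM21 transcripts, 36.1% of the 50-base windows of Ces2c also occur in another gene, mainly the pseudogene Ces2d-ps. Ces2d-ps itself stood at group means of 0.184 to 0.534 FPKM. The share was 26.2% for Ces3b and 25.6% for Ces3a, which share their windows with each other, 17.3% for Ces2a, mainly with the pseudogene Gm7208, and 302 of 2323 windows for Ces1c, mainly with Ces1b. It was 0.903% to 3.30% for Ces1d, Ces1e, Ces1f, Ces1g and Ces2e. With windows of 100 bases, 13.6% was the highest share, again for Ces2c. How the authors treated reads that fit several genes is not given in the sources used here. The levels of Ces2c, Ces3a, Ces3b, Ces2a, Ces1c and Ces1b therefore carry this uncertainty. At 100 bases the shares of Ces2a (8.13%), Ces3b (7.04%) and Ces3a (6.88%) were alike in size, and that of Ces1c was 1.03%. Gm7208 itself was listed at no more than 0.0943 FPKM, 2 reads, in any library.

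RefSeq promoter windows (GRCm38.p6, 250 bases before to 50 after the start) were matched for 7 of the 10 genes. The 250 bases upstream of the start are shown for Ces1c and Ces1e, genes of 1 cluster and strand, with Ces1d between them, that changed in opposite directions with 326E, and for Ces2a and Ces3b, which were low on CDAA-HFD with and without 326E. They lie at chr8:93131284-93131533 (Ces1c) and chr8:93229620-93229869 (Ces1e) on the minus strand, and at chr8:104733753-104734002 (Ces2a) and chr8:105083505-105083754 (Ces3b) on the plus strand, and are written in the direction of the gene. Capitals mark matches to the motifs searched.
Ces1c: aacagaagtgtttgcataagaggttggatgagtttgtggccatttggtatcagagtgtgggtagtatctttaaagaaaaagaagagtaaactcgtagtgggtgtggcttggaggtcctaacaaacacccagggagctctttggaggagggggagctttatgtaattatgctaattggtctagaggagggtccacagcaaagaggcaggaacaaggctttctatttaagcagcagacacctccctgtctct
Ces1e: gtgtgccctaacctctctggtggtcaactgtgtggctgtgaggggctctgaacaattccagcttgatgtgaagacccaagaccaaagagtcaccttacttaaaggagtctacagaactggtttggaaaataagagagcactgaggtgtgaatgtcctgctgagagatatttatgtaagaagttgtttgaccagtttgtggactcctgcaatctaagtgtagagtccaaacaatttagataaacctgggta
Ces2a: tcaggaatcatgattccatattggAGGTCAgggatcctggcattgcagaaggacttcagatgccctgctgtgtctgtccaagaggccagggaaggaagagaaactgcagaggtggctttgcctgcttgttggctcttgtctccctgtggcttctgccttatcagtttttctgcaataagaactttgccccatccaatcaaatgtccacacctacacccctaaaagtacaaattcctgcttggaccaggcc
Ces3b: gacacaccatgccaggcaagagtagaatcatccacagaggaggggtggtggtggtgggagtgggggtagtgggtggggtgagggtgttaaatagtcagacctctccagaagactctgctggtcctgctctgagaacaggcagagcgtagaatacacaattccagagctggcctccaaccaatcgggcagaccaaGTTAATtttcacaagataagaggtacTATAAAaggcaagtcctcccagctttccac
The motifs, searched on both strands, were AGGTCA (the core hexamer of many nuclear receptor sites), CAAAGTCCA (an HNF4 type site), CAAAGGTCA (a direct repeat site, with AGGTCA as its end), GTTAAT (an HNF1 type hexamer), TATAAA (the TATA box), TTCNNNGAA (a STAT type site) and TGACNNNGC (the antioxidant response core). Ces3b held TATAAA beginning 30 bases before its start and GTTAAT beginning 56 bases before it. Ces2a held AGGTCA at 226 bases before its start, and Ces1g held TATAAA on the other strand at 26 bases. The other motifs were not in the 7 windows. Of 32851 promoter windows of the same length in the table, 16.3% held AGGTCA, 13.6% TATAAA, 12.4% TGACNNNGC, 8.30% TTCNNNGAA, 7.10% GTTAAT, 0.478% CAAAGGTCA and 0.475% CAAAGTCCA. Such matches are letters in these windows and not measured binding.

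Values are FPKM, fragments scaled to gene length and library size, as mean ± SD of 3 libraries. Log2 differences are of FPKM + 1 and carry a standard error after ±. The adjusted p is limma's after Benjamini-Hochberg adjustment over 13737 tested genes, and values below 0.05 count as calls. Libraries held 13275888 to 17058316 assigned reads, and the 10 genes had from 297 reads (Ces1e) to 35153 reads (Ces3a) in a library, so none was near the detection limit. All 10 passed the filter on low values.

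The tissue label was checked against hepatocyte markers. All 15 were measured and none was at 0, with a summed level of 59794 to 62386 FPKM in chow livers, 37164 to 54729 with vehicle and 35687 to 46331 with 326E. Of these markers 9 fell on CDAA-HFD and 0 rose, where 20.8% of all tested genes fell and 20.8% rose, and 0 were called with 326E, where 4.96% of all rose and 6.5% fell. Macrophage markers went from 253 to 282 FPKM summed in chow to 1126 to 1569 with vehicle and 630 to 1022 with 326E, with 9 of 12 higher and 1 lower on the diet, and 1 higher and 6 lower with 326E. Stellate and fibroblast markers were at 52.1 to 71.0, 248 to 362 and 161 to 192 FPKM summed, with 8 of 10 higher and 0 lower on the diet, and 0 higher and 5 lower with 326E. On the diet 4 of 5 tested cholangiocyte markers rose and 0 fell, 3 of 8 endothelial markers rose and 1 fell, and 1 of 4 tested T and B cell markers rose and 0 fell. None of these was called with 326E. In these whole-liver samples fewer cells of a type and less RNA per cell cannot be told apart, and the part of cell make-up in the results below was not tested. Prss2, a pancreatic trypsinogen, stood at 1494 FPKM in chow replicate 3 and 178 FPKM in 326E replicate 1, against 0 to 0.951 FPKM in the other 7 libraries, and Alpi, an intestinal phosphatase, at 14.5 FPKM in 326E replicate 1 and 0 in the rest. Omission of both those libraries is therefore among the 20 alternatives used below, and some results are also given for it alone. Prss2 and Alpi come from a list of 8 intestine and pancreas markers. These summed to 46.5 to 4173 FPKM in chow, 59.2 to 83.2 with vehicle and 118 to 560 with 326E. Of the 5 tested, 1 rose and 0 fell on the diet, and 1 rose and 0 fell with 326E. Without overlap on the diet, 2 of the 5 were higher and 2 lower, as were 24.9% and 27% of all tested genes. The 8 adipocyte markers summed to 355 to 1178 FPKM in chow livers, 142 to 289 with vehicle and 317 to 610 with 326E. Nearly all of that sum was Car3, a carbonic anhydrase that hepatocytes also express, which fell on the diet (log2 -1.91 ± 0.47, adjusted p = 0.0106). Fabp4 rose (log2 1.18 ± 0.19, adjusted p = 0.00124), Cfd was not called, and the other 5 were below the filter, with Adipoq at most 0.902 FPKM and Lep at 0 in all libraries.

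In chow livers the 2 most abundant carboxylesterases were Ces1c, the esterase that mouse liver secretes into plasma, at 935.5 ± 48.3 FPKM, and Ces3a, a liver esterase of the third subfamily, at 933.6 ± 120 FPKM. Their values overlapped. Ces3b followed at 272.2 ± 17.9 FPKM, with no overlap with Ces3a above or Ces2a below. Ces2a (163.7 ± 6.64), Ces1d (147.8 ± 33.6) and Ces1f (124.7 ± 17.2 FPKM) overlapped as neighbours in this order, as did Ces1g (74.3 ± 22.4), Ces2e (66.7 ± 10.4), Ces1e (49.0 ± 14.2) and Ces2c (33.0 ± 19.2 FPKM).

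The order was different in the other groups. With vehicle on CDAA-HFD, Ces1c (607 ± 141) and Ces3a (569 ± 60.4 FPKM) again led and overlapped, followed without overlap by Ces1d, Ces1g, Ces2e and Ces3b, and then by Ces1f, Ces2c, Ces2a and Ces1e, with overlap between neighbours within each set. With 326E, Ces3a (559 ± 114), Ces1c (360.4 ± 54.9), Ces1d (161 ± 52.7), Ces1f (90.8 ± 10.1) and Ces1g (64.7 ± 8.13 FPKM) followed each other without overlap. Ces2e, Ces3b and Ces1e came next and overlapped as neighbours, and Ces2c and Ces2a, which overlapped, were lowest.

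**Figure D1:**
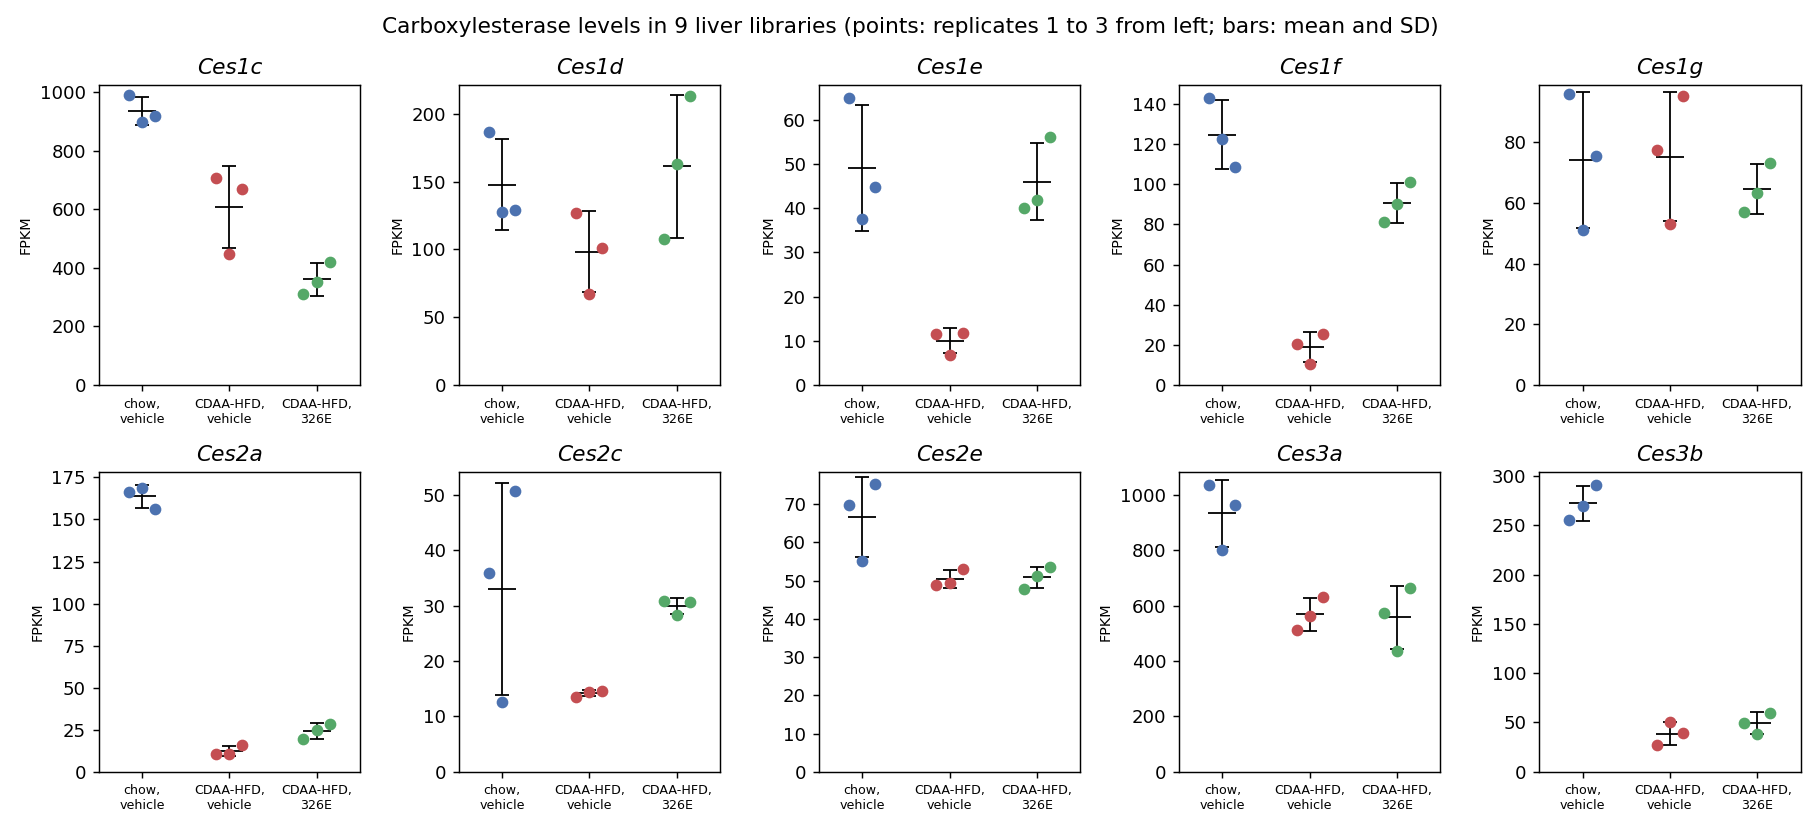
FPKM of each of the 10 carboxylesterases (vertical axes, from 0, with a scale of its own in each panel) in the 9 libraries, grouped as chow with vehicle, CDAA-HFD with vehicle and CDAA-HFD with 326E. Points are libraries and bars show mean and SD. Ces1e and Ces1f are lowest in the vehicle group, Ces2a and Ces3b are low in both CDAA-HFD groups, and Ces1c is lowest with 326E.

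The summed level of the 10 genes of chow livers was 2801 ± 249 FPKM, against 1494 ± 200 for vehicle and 1436 ± 229 for 326E. The chow libraries (2546 to 3045) lay above all others, and the vehicle (1271 to 1658) and 326E libraries (1288 to 1700.2) overlapped. The size of this gap depended on the scale: the sum was 0.506% to 0.623% of all FPKM of a library in chow livers, 0.411% to 0.480% with vehicle and 0.377% to 0.441% with 326E, and 0.544% to 0.656%, 0.378% to 0.430% and 0.365% to 0.432% of the assigned reads. What the sum was made of differed. Ces1c and Ces3a together held 66.6% to 66.9% of it in chow livers, 78.4% to 79.4% with vehicle and 61.1% to 67.1% with 326E. Ces1f held 4.46% ± 0.516 in chow, 1.22% ± 0.359 in vehicle and 6.36% ± 0.546 in 326E livers. Ces3b held 9.79% ± 1.21, 2.67% ± 1.14 and 3.43% ± 0.414. Ces1d held 5.24% ± 0.792, 6.51% ± 1.48 and 11.1% ± 2.55. These sums and shares are descriptions, with no test.

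**Figure D2:**
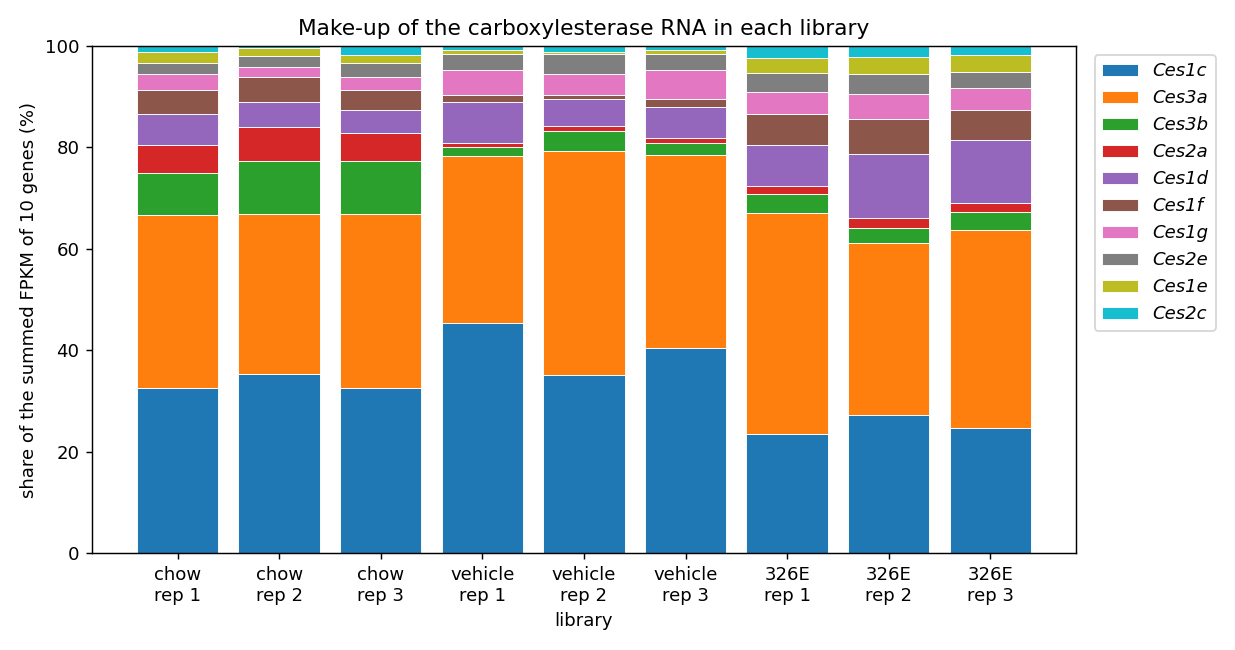
Share (%) of each gene in the summed FPKM of the 10 carboxylesterases, by library (3 chow, 3 vehicle, 3 326E), stacked to 100. The parts of Ces3b and Ces2a are wide in chow and narrow in both CDAA-HFD groups, and the parts of Ces1d, Ces1e and Ces1f are widest with 326E.

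The first comparison, vehicle against chow, asked what the diet changed. Carboxylesterases were lower on CDAA-HFD: of 10, 0 rose, 7 fell and 3 did not pass (4 fell with quantile normalization or when scaled to assigned reads). Of all tested genes 41.6% were called, 20.8% higher and 20.8% lower. Rescaled to assigned reads, 37.1% of all tested genes were higher and 6.91% lower, and with quantile normalization 18.4% and 23.2%. The median log2 difference of the 10 was -0.84, against -0.04 for all tested genes and -0.74 for the 15 hepatocyte markers. The falls differed in size, from 13.1-fold for Ces2a to 1.32-fold for Ces2e. The level of 8 of the 10 was lower in every vehicle library than in every chow library and of 0 was higher, which held for 27% and 24.9% of all tested genes.

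Ces2a, of the subfamily that prefers esters with a small acyl and a large alcohol group, fell most. It stood at 166, 169 and 156 FPKM in chow and at 10.7, 10.8 and 15.8 FPKM in vehicle replicates 1 to 3. Chow and vehicle did not overlap and the chow libraries were close together (log2 -3.63 ± 0.17, adjusted p = 4.91e-06). Ces3b, the neighbour and near copy of Ces3a, stood at 256, 270 and 291 FPKM in chow and 26.9, 50.1 and 38.9 FPKM in vehicle livers. The fall in Ces3b was 7.05-fold (log2 -2.83 ± 0.23, adjusted p = 3.09e-05).

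Ces1f stood at 143, 123 and 109 FPKM in chow and 20.6, 10.5 and 25.2 FPKM in vehicle livers, a 6.64-fold fall (log2 -2.74 ± 0.27, adjusted p = 8.57e-05). Ces1e, also called egasyn, which holds beta-glucuronidase in the endoplasmic reticulum, stood at 64.9, 37.5 and 44.7 FPKM in chow and 11.6, 6.68 and 11.9 FPKM in vehicle livers. Its fall was 4.88-fold (log2 -2.18 ± 0.25, adjusted p = 0.000211). The calls of Ces2a, Ces3b, Ces1f and Ces1e held in all 20 alternative settings and library omissions.

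The other 3 calls were smaller and depended on the scaling. Ces1c stood at 990, 899 and 917 FPKM in chow and 706, 446 and 670.0 FPKM in vehicle livers (log2 -0.65 ± 0.19, adjusted p = 0.0254), but at 0.27 with quantile normalization. Ces3a fell from 1037, 802 and 963 FPKM to 512, 562 and 632 FPKM (log2 -0.71 ± 0.18, adjusted p = 0.0135), and was at 0.14 with quantile normalization. Ces2e fell from 69.8, 55.1 and 75.2 FPKM to 48.8, 49.4 and 53.2 FPKM (log2 -0.38 ± 0.12, adjusted p = 0.0336), and was at 0.0075 when values were rescaled to the assigned reads. That rescaling puts the median over the tested genes at 0.25 in place of -0.04. Neither the Ces1c, the Ces3a nor the Ces2e call held under either of these scalings, and without the 2 libraries with pancreatic RNA the count was 4 of 10. Single libraries ended these calls too: chow replicate 1 for all 3 (adjusted p = 0.0526 to 0.105 without it), chow replicate 3 for Ces1c (adjusted p = 0.057) and Ces2e (adjusted p = 0.113), vehicle replicate 2 for Ces1c (adjusted p = 0.0664), and vehicle replicates 1, 2 and 3 and 326E replicate 2 for Ces2e (adjusted p = 0.0506 to 0.0853).

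Of the 3 that did not pass, Ces1d, an enzyme that releases fatty acids from stored triglyceride for VLDL, stood at 187, 128 and 129 FPKM in chow and 127, 67.1 and 101 FPKM in vehicle livers. The groups lay next to each other without overlap (log2 -0.61 ± 0.30, 95% interval -1.28 to 0.07, adjusted p = 0.133). Ces1g, which also hydrolyses lipid esters and limits VLDL secretion, was at 96.0, 51.2 and 75.6 FPKM in chow and 77.6, 53.1 and 95.2 FPKM in vehicle livers, overlapping throughout (log2 0.03 ± 0.26, 95% interval -0.56 to 0.61). Ces2c, a lipase of the second subfamily, was at 35.8, 12.6 and 50.7 FPKM in chow and 13.5, 14.5 and 14.5 FPKM in vehicle livers. Its vehicle libraries were alike and chow replicate 2 lay below them (log2 -0.96 ± 0.39, adjusted p = 0.0779). Without chow replicate 2 the difference was -1.52 (adjusted p = 0.000201), so that library decided the call.

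The second comparison asked what 326E changed on CDAA-HFD, 326E against vehicle. Of the 10, 3 rose, 1 fell and 6 did not pass, where 11.5% of all tested genes were called, 4.96% higher and 6.5% lower. The median of the 10 was 0.53, against -0.02 for all tested genes and -0.11 for the 15 hepatocyte markers. Without overlap between the groups, 4 of the 10 were higher and 1 lower, as were 14.8% and 18.2% of all tested genes. Ces1f rose 4.84-fold, Ces1e 4.57-fold and, from a low level, Ces2a 1.95-fold, and Ces1c fell. This comparison and that of the diet share the vehicle libraries, so a shift in those libraries moves both, in opposite directions.

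Ces1f stood at 81.2, 90.0 and 101 FPKM with 326E, above each of the vehicle values of 10.5 to 25.2 FPKM. The rise was larger than the spread within either group (log2 2.29 ± 0.27, adjusted p = 0.0023). Ces1e stood at 40.1, 41.8 and 56.0 FPKM with 326E, above the vehicle range of 6.68 to 11.9 FPKM (4.57-fold, log2 2.11 ± 0.25, adjusted p = 0.00249). Both calls held in all 20 alternatives. Ces2a rose to 19.3, 24.8 and 28.5 FPKM, without overlap with vehicle (log2 0.91 ± 0.17, adjusted p = 0.0137). That call was lost without 326E replicate 2 (0.89, adjusted p = 0.0527) and held in the other 19 alternatives.

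Ces1c, by contrast, stood at 311, 350.5 and 420 FPKM with 326E, below every vehicle library (log2 -0.73 ± 0.19, adjusted p = 0.0433). It was lower in every alternative, from -0.96 to -0.61, but passed in 8 of 20. Of the 9 omissions of 1 library it passed in 1, that of vehicle replicate 2 (-0.94, adjusted p = 0.012), and without the others the adjusted p was 0.0517 to 0.123. Without both libraries with pancreatic RNA it was 0.162.

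Ces2c stood at 30.9, 28.3 and 30.6 FPKM with 326E, above its vehicle libraries without overlap, yet did not pass (log2 1.03 ± 0.39, adjusted p = 0.126) in the fit whose spread all 9 libraries share. It passed with only the libraries of this comparison (1.03, adjusted p = 0.00332) and without chow replicate 2 (adjusted p = 0.00399). Ces1d was at 108, 163 and 213 FPKM with 326E and overlapped vehicle (log2 0.70 ± 0.30, 95% interval 0.03 to 1.37, adjusted p = 0.163). Values of Ces3b (49.98, 38.3 and 59.9 FPKM, log2 0.37 ± 0.23, 95% interval -0.14 to 0.88), Ces3a (574, 437 and 664 FPKM, log2 -0.04 ± 0.18, 95% interval -0.46 to 0.38), Ces2e (47.8, 51.2 and 53.5 FPKM, log2 0.01 ± 0.12, 95% interval -0.27 to 0.29) and Ces1g (57.2, 63.4 and 73.3 FPKM, log2 -0.18 ± 0.26, 95% interval -0.77 to 0.40) overlapped vehicle too. The interval of Ces2e was the narrowest of these and that of Ces1g the widest. For Ces2e quantile normalization (-0.032) and scaling to assigned reads (-0.022) put the value on the other side of 0.

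**Figure D3:**
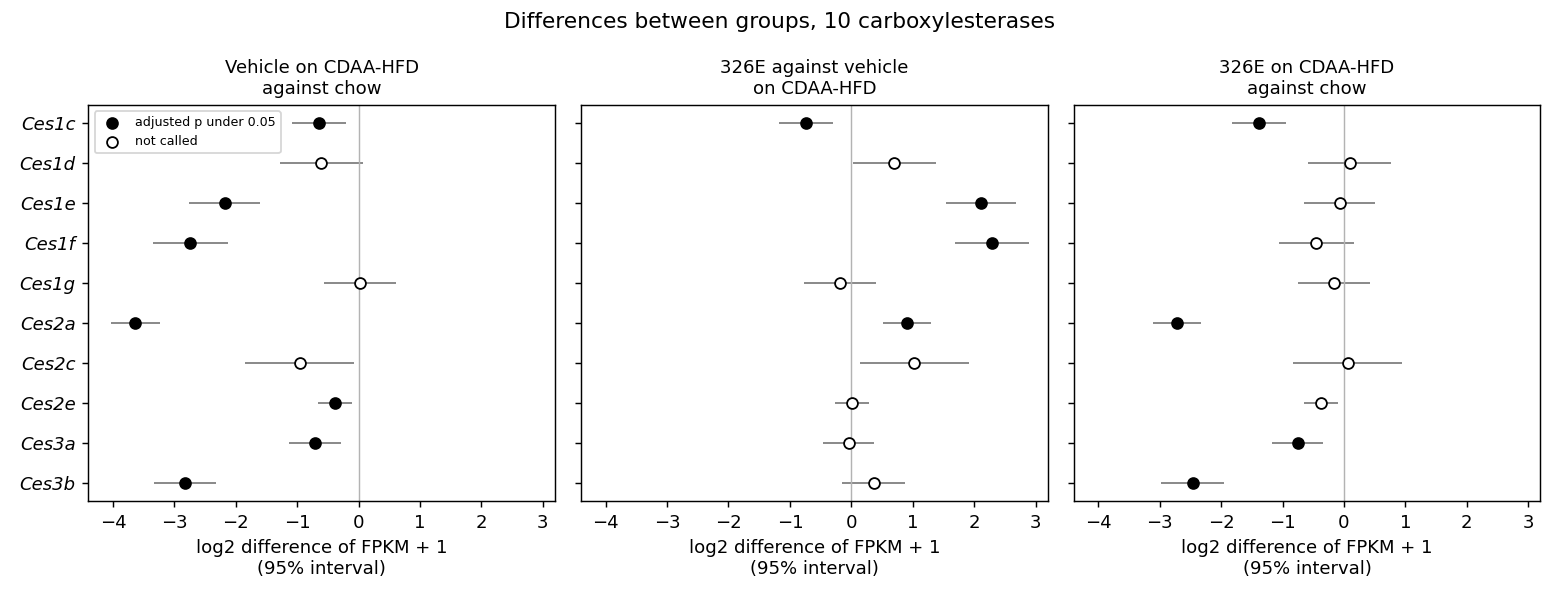
Log2 difference of FPKM + 1 (horizontal axis) with its 95% interval for the 10 carboxylesterases in the 3 comparisons. Filled points passed at an adjusted p under 0.05. Ces2a, Ces3b, Ces1f and Ces1e stand furthest left for the diet, and Ces1f and Ces1e furthest right for 326E. For 326E against chow, Ces2a, Ces3b, Ces1c and Ces3a are the filled points, all left of 0.

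The third comparison set 326E on CDAA-HFD against chow, to show how far treated livers still differed from livers of chow-fed mice. Of the 10, 0 rose, 4 fell and 6 did not pass, where 26.8% of all tested genes were called, 14.4% higher and 12.5% lower (28.7% and 4.27% when rescaled to assigned reads). Without overlap, 0 of the 10 were higher and 6 lower, as were 22.4% and 22.6% of all tested genes. The median of the 10 was -0.41, against -0.02 for all tested genes and -0.67 for the 15 hepatocyte markers. Ces2a remained 6.76-fold (log2 -2.72 ± 0.17, adjusted p = 4.33e-05) and Ces3b 5.51-fold below chow (log2 -2.46 ± 0.23, adjusted p = 0.000168), in all 20 alternatives. Ces1c was 2.6-fold below chow (log2 -1.38 ± 0.19, adjusted p = 0.00127), a call that quantile normalization ended (-0.69, adjusted p = 0.0608). Ces3a was 1.67-fold below (log2 -0.75 ± 0.18, adjusted p = 0.0164), a call lost in 7 of 20 alternatives, among them the omission of chow replicate 1 (adjusted p = 0.0616), chow replicate 3 (adjusted p = 0.0515) or 326E replicate 2 (adjusted p = 0.0593).

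Ces1e with 326E overlapped chow (log2 -0.07 ± 0.25, 95% interval -0.64 to 0.51, with 0.14 under quantile normalization and 0.29 when rescaled to assigned reads). Ces1f with 326E lay below each chow library but did not pass (log2 -0.45 ± 0.27, 95% interval -1.06 to 0.16, adjusted p = 0.248). Ces2e had a value of -0.37 ± 0.12 (adjusted p = 0.0524) and was called without chow replicate 2 (-0.50, adjusted p = 0.0113). Ces2c was at 0.06 ± 0.39, and at -0.50 (adjusted p = 0.0413) without chow replicate 2, whose low value thus turned its direction. Ces1d (0.09 ± 0.30, 95% interval -0.58 to 0.77) and Ces1g (-0.16 ± 0.26, 95% interval -0.74 to 0.43, with 0.090 and 0.20 under those scalings) did not pass.

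The rest of the family gives the surroundings of these genes. Of 10 other carboxylesterase genes in the table, 5 passed the filter: Ces1b, Ces2b, Ces2g, Ces4a and the pseudogene Ces2d-ps. Ces1a, Ces1h, Ces2f, Ces2h and Ces5a did not. Ces1b, next to Ces1c, stood at 45.9, 33.6 and 30.6 FPKM in chow, 53.7, 36.0 and 48.7 FPKM in vehicle and 14.6, 16.3 and 24.1 FPKM in 326E livers. It was not called for the diet (log2 0.32 ± 0.23, adjusted p = 0.283) and was lower with 326E than in each library of the other groups, with a fall against vehicle (log2 -1.30 ± 0.23, adjusted p = 0.00918) and against chow (log2 -0.97 ± 0.23, adjusted p = 0.0126). Ces4a fell on the diet from 1.81 ± 0.629 to 0.296 ± 0.187 FPKM (log2 -1.10 ± 0.20, adjusted p = 0.00251) and Ces2b from 2.01 ± 1.79 to 0.0612 ± 0.0581 FPKM (log2 -1.29 ± 0.42, adjusted p = 0.0358). Ces2b rests on 0 to 8 reads in the vehicle libraries, and its chow values were 2.02, 0.204 and 3.79 FPKM, with replicate 2 again the low one, as for Ces2c. Ces2g, at 14.8 to 18.3 FPKM in the group means, was called in no comparison (adjusted p = 0.114 to 0.894).

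Along the chromosome, neighbours differed. In the minus-strand cluster Ces1b and Ces1c fell with 326E, Ces1d did not pass, Ces1e and Ces1f rose, and Ces1g did not pass. Ces1b and Ces1c share 190 windows of 50 bases, and how reads that fit both were counted is not given. Ces1d ends 3.38 kb from the start of the Ces1e interval, and Ces1e and Ces1f are 26.6 kb apart. In the plus-strand cluster Ces3a and Ces3b, 25.3 kb apart, both fell on CDAA-HFD, Ces3b by 2.83 on the log2 scale and Ces3a by 0.71, a value that quantile normalization turned to 0.14. A short same-strand gene of unknown status, Gm45909, lies within Ces1d with at most 59 reads, and Gm45724 lies antisense within Ces3a with at most 23 reads. The mean absolute difference between centred log2 values over the 9 libraries was smallest for Ces2e and Ces3a (0.26) and largest for Ces1g and Ces2a (2.19).

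**Figure D4:**
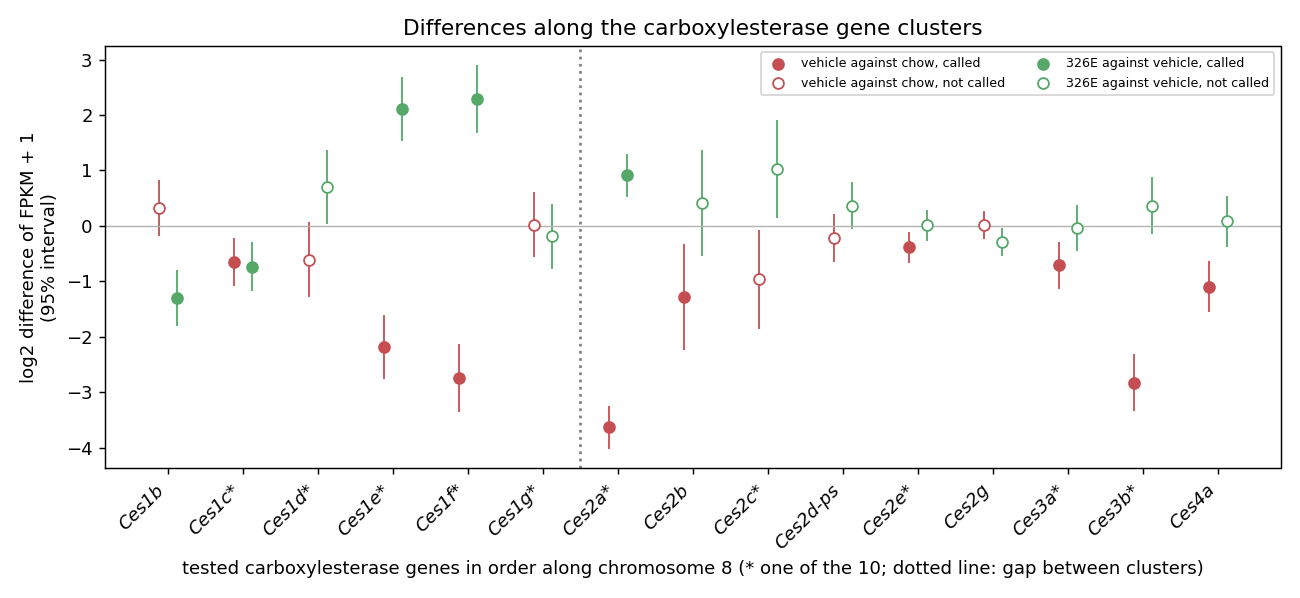
Log2 difference of FPKM + 1 with its 95% interval (vertical axis) for the 15 tested carboxylesterase genes in their order along chromosome 8, with the gap between the clusters as a dotted line. Red is vehicle against chow, green 326E against vehicle, and filled points passed. The green points go from below 0 at Ces1b and Ces1c to above 2 at Ces1e and Ces1f.

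Other hydrolases were counted from lists, without the alternative settings run for the 10 genes. Their counts stand beside 20.8% of all tested genes higher and 20.8% lower on the diet, and 4.96% higher and 6.5% lower with 326E. On CDAA-HFD 8 of 22 lipid and ester hydrolases and their cofactors rose, 7 fell and 7 did not pass (median 0.01), and 6 rose, 1 fell and 15 did not pass with 326E (median 0.16). Hilpda, an inhibitor of the lipase ATGL, rose from 1.35 ± 0.348 to 29.1 ± 19.7 FPKM on the diet and was at 3.59 ± 0.972 FPKM with 326E. Lpl, lipoprotein lipase, rose from 4.72 ± 0.922 to 46.5 ± 2.81 FPKM on the diet. Abhd6, a monoacylglycerol hydrolase, rose with 326E from 15.5 ± 2.47 to 46.6 ± 8.45 FPKM (log2 1.52 ± 0.21, adjusted p = 0.00413). Among 17 tested genes listed as xenobiotic hydrolases the diet raised 1 and lowered 8, and 8 did not pass (median -0.39). With 326E 3 rose, 1 fell and 13 did not pass (median 0.12). Not all of them act on xenobiotics, and Akr1c6, also counted, is a reductase and not a hydrolase. Afmid, the formamidase of tryptophan breakdown, and Bphl, a hydrolase of amino acid ester prodrugs, fell by 1.25 and 0.96 on the log2 scale on the diet. Ephx2, soluble epoxide hydrolase, rose by 1.12 ± 0.14 with 326E (adjusted p = 0.00249), and Ggh, gamma-glutamyl hydrolase, fell by 0.70.

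Regulators that have been tied to carboxylesterase genes, together with the P450 oxidoreductase Por, were counted in the same way. The shares of all tested genes to set beside them are the same (20.8% in each direction on the diet, 4.96% higher and 6.5% lower with 326E). On CDAA-HFD 2 of the 19 measured rose, 12 fell and 5 did not pass (median -0.54), and 2 rose, 1 fell and 16 did not pass with 326E (median 0.18). Foxa2, a hepatocyte forkhead factor, fell from 12.3 ± 3.45 to 3.62 ± 1.1 FPKM on the diet and rose to 7.36 ± 1.5 FPKM with 326E (adjusted p = 0.0484). Nr0b2, the repressor SHP, fell by 1.35 on the log2 scale on the diet, and Srebf1, the regulator of fat synthesis, rose with 326E from 14.1 ± 4.66 to 38.4 ± 5.02 FPKM (log2 1.42 ± 0.26, adjusted p = 0.0108). Target genes of the xenobiotic receptors CAR and PXR were 1 up, 7 down and 8 not passing of 16 tested on the diet (median -0.47), and 0 up, 2 down and 14 not passing with 326E (median 0.15). Cyp2c29 fell from 501 ± 47 to 6.96 ± 4.1 FPKM on the diet. Cyp2c37 fell from 236 ± 36.6 to 47.2 ± 20.3 FPKM on the diet and to 10.3 ± 8.14 FPKM with 326E, and Slco1a4, an organic anion carrier, fell with 326E from 13.6 ± 2.46 to 1.41 ± 0.438 FPKM. Of 15 genes listed for VLDL assembly, 3 rose, 3 fell and 9 did not pass on the diet (median -0.12). These counts were close to the 20.8% of all tested genes in each direction. With 326E 0 rose, 1 fell and 14 did not pass (median 0.01). The list also holds the lipid droplet genes Cidec and Plin2. Apoa4 and Cidec rose by 3.84 and 3.15 on the diet, and Apoa4 fell by 1.12 with 326E.

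By a measure of likeness over all 9 libraries, the mean absolute difference of log2 values centred on the chow mean, the closest of 10201 protein-coding genes to Ces2a were Mup3 (0.26), Mup1 (0.36) and Serpina1e (0.39). Mup1 stood at 44.4 ± 1.6 FPKM in chow, 1.48 ± 0.266 in vehicle and 4.13 ± 0.961 in 326E livers. Mup and Serpina1 genes have near-identical copies, so their levels are uncertain. Among the genes closest to Ces3a were Rdx (0.10) and Mrps22 (0.11), with Rdx, which encodes radixin, at 85.0 ± 8.46, 50.1 ± 3.81 and 55.3 ± 5.76 FPKM. Closest to Ces1d were Pcsk4 (0.14), AU041133 (0.17) and 2700062C07Rik (0.18).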

How the data were processed

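RNA-seq of 9 mouse liver libraries was analysed. Per the labels' protocols the libraries were poly(A) selected, and the submitters' processing notes name HISAT2, featureCounts and mm10. Versions, annotation release, strand setting and treatment of multi-mapping reads are not given in the sources used here. The deposited values are FPKM with a gene length. FPKM times length gave whole reads (within 0.01) in 100% of values, and the authors' library sizes are 0.828 to 1.19 of the assigned reads, equal to median-of-ratios sizes. In a 2 kb gene, 1 read is worth 0.0246 to 0.0455 FPKM. No library pair within a group was a duplicate (chi-square per degree of freedom 20.5 to 79.5). Pairs between groups were not compared in this way.

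The filter kept genes reaching 0.5 FPKM in 3 or more libraries. The test was limma (version 3.58.1, under R 4.3.3) of log2(FPKM + 1), pseudocount 1, with a variance trend, 1 fit over 9 libraries and 6 residual degrees of freedom. This scale understates changes of low genes. The fit was run on simulated data in which few genes changed, with the same spread set for all genes. Those data held no general shift between groups, so that run does not bear on the choice of scaling. The members, lists and alternatives were chosen with earlier results of these data known. Named were all members, the tested other carboxylesterases, of each list the 2 called genes with the largest change in the diet and in the 326E comparison, and for Ces1d, Ces2a and Ces3a the 3 protein-coding genes of most similar pattern with a mean of at least 1 FPKM. One gene that this rule names is not reported here. Prss2, Alpi and the adipocyte markers were chosen after their values were seen. Alternatives were other pseudocounts, filters and scalings, voom on the whole reads, no variance trend, only the libraries compared, a replicate block and omission of each library; omission of both libraries with pancreatic RNA was added after the data were seen. Python 3.11.15 with pandas 2.3.3 and matplotlib 3.10.9 prepared tables and plots.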

Additional observations from a re-analysis of the deposited data

How the results depend on the processing

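Over 20 alternatives the 30 differences of the 10 genes gave 600 values. Of these 532 kept direction and call, and 24 changed direction, whatever their call, 3 of them from called values. Among values that kept direction, 39 lost the call and 5 gained it. The count of genes called for the diet was 7, and 4 with quantile normalization, scaled to total assigned reads or without the libraries with pancreatic RNA (4 to 8 when 1 library was left out). For 326E against vehicle it was 4 (2 to 4 when 1 was left out), and for 326E against chow 4, and 2 with quantile normalization (3 to 6). Of all tested genes, 5721 were called for the diet (4662 to 5667 when 1 library was left out), 1574 for 326E against vehicle (647 to 1635; 1030 with no filter, 824 without the pancreatic libraries) and 3688 for 326E against chow (2393 to 3711; 1745 without the pancreatic libraries). The voom fit on the recovered reads called 5709, 1860 and 3811 genes. With a replicate block, 1037 genes and 3 of the 10 were called for 326E against vehicle, Ces1c being lost (adjusted p = 0.0637). The block changed no other call of the 10. Same-numbered libraries did not deviate together (correlations of -0.24 to 0.02, and 1 of 18 best matches had the same number). With 3 libraries a group this cannot settle whether the numbers pair the samples.

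Directions changed as follows. Quantile normalization gave 0.27 for Ces1c and 0.14 for Ces3a (diet), -0.032 for Ces2e (326E against vehicle), and 0.14 for Ces1e and 0.090 for Ces1g (326E against chow). Scaling to total assigned reads gave 0.0075 and -0.022 for Ces2e (diet, 326E against vehicle) and 0.29 for Ces1e and 0.20 for Ces1g (326E against chow). When 1 library was left out, Ces1g ranged from -0.22 to 0.25 (diet), -0.41 to 0.0022 (326E against vehicle) and -0.40 to 0.047 (326E against chow), Ces2e from -0.026 to 0.053 and Ces3a from -0.18 to 0.12 (326E against vehicle), and Ces1d from -0.13 to 0.35, Ces1e from -0.24 to 0.15 and Ces2c from -0.50 to 0.47 (326E against chow). The cause was not tested. Quantile normalization moved 10 of 30 shares by more than 1 SD.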
